A study of Homo sapiens with 6 samples.

Results

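The 10 genes described here encode enzymes that build pyrimidine and purine nucleotides from small precursors, namely CAD, DHODH, UMPS and CTPS1 for pyrimidines and PPAT, GART, PAICS, ADSL, ATIC and IMPDH2 for purines. They were chosen by name as enzymes of these routes, with earlier results of these data known, and are 10 of the 19845 gene symbols counted. RNA of Molm13 cells, a human acute myeloid leukemia line with a rearranged MLL gene, was sequenced from 6 libraries, all of cells that stably express the Cas9 nuclease and that received a guide RNA in the lentiviral vector ipUSEPR followed by puromycin selection at 1.0 ug/ml. The 3 sgCtrl libraries carry control guides and the 3 sgCOX4I1 libraries carry guides against COX4I1, a subunit of Complex IV of the respiratory chain. Each library of a group came from an independent guide, so the spread within a group includes differences between guides, and the sequenced cells are transduced populations that can hold edited and unedited cells.

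The pyrimidine ring is assembled by CAD, a single protein with carbamoyl phosphate synthetase, aspartate transcarbamylase and dihydroorotase activities, and is then oxidized to orotate by DHODH. DHODH sits in the inner mitochondrial membrane and hands its electrons to ubiquinone, so orotate synthesis needs a respiratory chain that takes them onward through Complex IV to oxygen. The purine ring is built on phosphoribosyl pyrophosphate in a chain of cytosolic reactions that use glutamine, glycine, formyl groups and aspartate. Leukemia cells rely on these routes for DNA and RNA synthesis, and inhibitors of DHODH and IMPDH2 are known to act on proliferating blood cells.

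PPAT and PAICS, which act at the first and a middle step of purine synthesis, are neighbours on chromosome 4 and are transcribed in opposite directions, and the stretch between their outermost annotated starts is shown because both genes are members of the group. In GENCODE 44 on GRCh38 this gap is 125 bases long at chr4:56435616-56435740 and 76.0% of its bases are G or C. The canonical transcripts, the reference models of each gene, start farther apart, with 644 bases between them. The sequence is given on the plus strand, with PAICS to the right, and no base is in capitals since no searched motif lies in it.
PPAT-PAICS gap: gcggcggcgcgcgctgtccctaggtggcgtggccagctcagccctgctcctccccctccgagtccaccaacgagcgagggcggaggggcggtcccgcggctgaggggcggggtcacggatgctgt

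The E-box CACGTG, the letters that MYC and related factors are known to bind, was searched on both strands in the RefSeq promoter windows of 250 bases before to 50 after each start (GRCh38.p14). A window was given for 8 of the 10 genes, all but ADSL and IMPDH2. It was found for 4 of these 8, ATIC, DHODH, PPAT and PAICS, against 8.77% of all 27305 genes with a window. Counted by window, it was found in 4 of the 13 windows of these 8 genes, against 7.26% of all 35116 windows. PPAT and PAICS share one and the same site at chr4:56435792-56435797, and ATIC has 2. TGATGCAA, a composite ATF4 and CEBP motif, was found for 0 of the 8, against 1.08% of genes. A match in letters is a description and does not show binding. The sites found are printed 5′ to 3′ on the strand of the gene, with the motif in capitals. They are chr2:215312013-215312018 and chr2:215312088-215312093 for ATIC, the shared chromosome 4 site read from PPAT, and chr16:72008585-72008590 for DHODH.
ATIC site before the start: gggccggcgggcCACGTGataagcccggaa
ATIC site after the start: ctcctacctgcgCACGTGgtgccgccgctg
PPAT and PAICS shared site: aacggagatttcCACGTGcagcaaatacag
DHODH site: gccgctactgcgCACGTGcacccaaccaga

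The libraries held 17241014 to 30861943 counts, with TMM factors, which correct for differences in RNA composition, of 0.987 to 1.01. Values below are TMM-normalized CPM, and a gene is called when its adjusted p is under 0.05 in edgeR's quasi-likelihood test, with the Benjamini-Hochberg method applied over the 11861 genes that passed the filter on low counts. COX4I1 itself was 26.7%, 76.7% and 27.0% of the sgCtrl mean in sgCOX4I1 #1, #2 and #3 (log2 fold change -1.21, standard error 0.29, edgeR adjusted p = 0.0512). Without sgCOX4I1 #2 its log2 fold change was -1.89 (edgeR adjusted p = 3.37e-06), and over all 13 alternatives, of which 6 called it, the adjusted p ran from there to 0.272. All 8 markers of the line passed the filter, 3 higher and 5 lower, and of these MPO was called, with a log2 fold change of -1.06. They summed to 2081 to 3004 CPM in sgCtrl and to 2797 to 3857 CPM in sgCOX4I1. LYZ had a log2 fold change of 0.77 (edgeR adjusted p = 0.0534), and the part of such myeloid markers in the values below was not tested. Among markers of other cell types, CD3E, HBB and EPCAM did not pass the filter, COL1A1 was under 1 CPM in every library, and PECAM1 was not called.

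CTPS1, which makes CTP from UTP at the end of the pyrimidine route, rose by 26.2% in the sgCOX4I1 libraries and was the only one of the 10 genes called. IMPDH2, the most abundant of them, had overlapping values in both groups and was the only one with a log2 fold change under 0. Of the 10 genes, 1 was called, where 2.08% of all tested genes were called (247 genes) and 1.06% were called higher (126 genes). None of the 10 changed at least 2-fold with a call, where 0.202% of tested genes did, and DESeq2 and limma-voom gave 0 as well. In all, 9 of the 10 had a log2 fold change above 0, where 49.4% of tested genes did, and their median log2 fold change was 0.10 beside -0.0023 over all tested genes. In bulk RNA, fewer cells of a kind and less RNA per cell cannot be told apart.

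**Figure D1:**
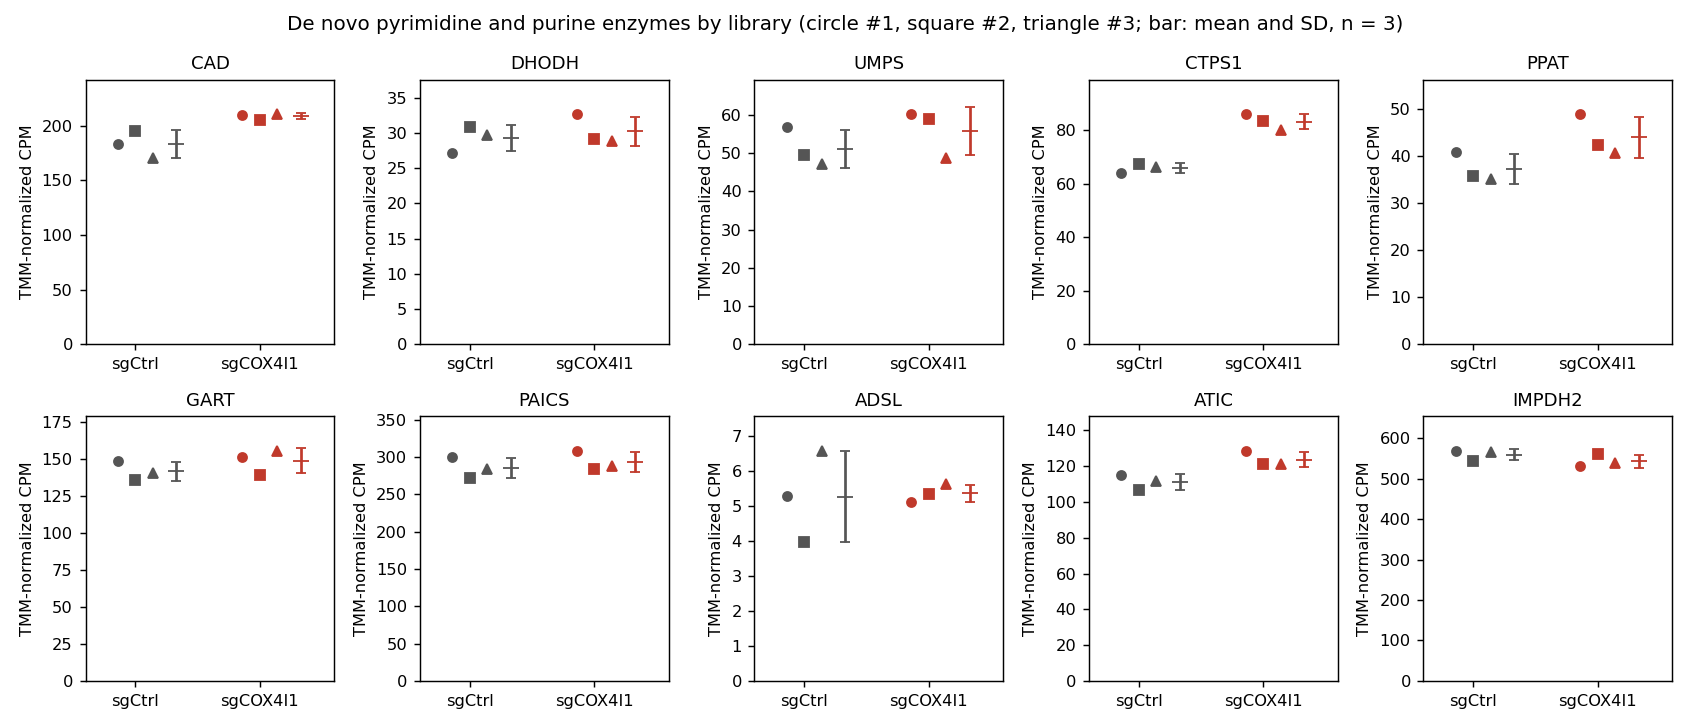
TMM-normalized CPM (y axis, from 0, scaled per gene) of the 10 enzymes in the 3 sgCtrl (gray) and 3 sgCOX4I1 (red) libraries, with circles, squares and triangles for guides #1, #2 and #3 and a bar for the mean and SD. The points of both groups are separate for CAD, CTPS1 and ATIC and overlap for the other 7 genes.

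CAD, the entry enzyme of pyrimidine synthesis (chromosome 2, 27217369 to 27243943, plus strand, GRCh38), had 183, 196 and 170 CPM in sgCtrl #1, #2 and #3. The sgCOX4I1 libraries had 210, 206 and 211 CPM in the same order. All 3 sgCOX4I1 libraries lay above all 3 sgCtrl libraries, and they lay closer together. The mean went from 183 ± 12.7 to 209 ± 2.78 CPM (SD, n = 3 each). The log2 fold change of CAD was 0.19 (standard error 0.074), and it was not called (edgeR quasi-likelihood test, Benjamini-Hochberg adjusted p = 0.200).

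DHODH, the enzyme that feeds electrons into ubiquinone (chromosome 16, 72008588 to 72027664, plus strand), had 27.2, 30.8 and 29.7 CPM in the sgCtrl libraries and 32.7, 29.1 and 28.9 CPM in the sgCOX4I1 libraries. The groups overlapped, with the lowest value in sgCtrl #1 and the highest in sgCOX4I1 #1. The log2 fold change was 0.046 with an unadjusted 95% interval from -0.16 to 0.25 (edgeR adjusted p = 0.845), and without either of those libraries it fell below 0. DHODH lies on the same chromosome as COX4I1, 13.8 Mb away.

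UMPS, which turns orotate into UMP (chromosome 3, 124730433 to 124749273, plus strand), had 56.8, 49.5 and 47.1 CPM in sgCtrl and 60.2, 58.9 and 48.7 CPM in sgCOX4I1. In both groups #1 was the highest and #3 the lowest, and sgCOX4I1 #3 lay among the controls. Its log2 fold change was 0.13 (standard error 0.10, edgeR adjusted p = 0.555). The ratio of UMPS to DHODH counts, the steps on either side of orotate, was 1.76 ± 0.286 in sgCtrl and 1.85 ± 0.168 in sgCOX4I1 (SD, n = 3 each; two-sided exact permutation test, p = 0.6, where the smallest p possible is 0.1).

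CTPS1 (chromosome 1, 40979300 to 41012565, plus strand) had 63.9, 67.4 and 66.3 CPM in the sgCtrl libraries and 85.9, 83.3 and 80.2 CPM in the sgCOX4I1 libraries. The groups were far apart relative to their spread, since the values varied by 2.72% (coefficient of variation) within sgCtrl and by 3.45% within sgCOX4I1. Its log2 fold change was 0.34 (standard error 0.073, edgeR adjusted p = 0.0335), an increase of 26.2% with an unadjusted 95% interval of 13.2% to 40.6%. Across the fits that leave out 1 library the log2 fold change stayed between 0.31 and 0.36, and the call was kept without sgCtrl #1 (edgeR adjusted p = 0.0393) and lost without any one of the other 5, with edgeR adjusted p-values from 0.0529 without sgCtrl #3 to 0.156 without sgCtrl #2. Without sgCOX4I1 #2, the library that kept most COX4I1 mRNA, the log2 fold change was 0.33 (edgeR adjusted p = 0.116).

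CTPS2, the paralog that catalyses the same reaction, had 16.7, 11.8 and 14.3 CPM in sgCtrl and 19.1, 14.6 and 15.0 CPM in sgCOX4I1. These values overlapped, and the log2 fold change of CTPS2 was 0.19 (standard error 0.15, edgeR adjusted p = 0.564). The ratio of CTPS1 to CTPS2 counts was 3.82, 5.72 and 4.64 in sgCtrl and 4.50, 5.71 and 5.36 in sgCOX4I1 (two-sided exact permutation test, p = 0.7). The groups overlapped, and the difference in mean log2 ratio of 0.15 ran from 0.0032 without sgCtrl #1 to 0.29 without sgCtrl #2.

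**Figure D2:**
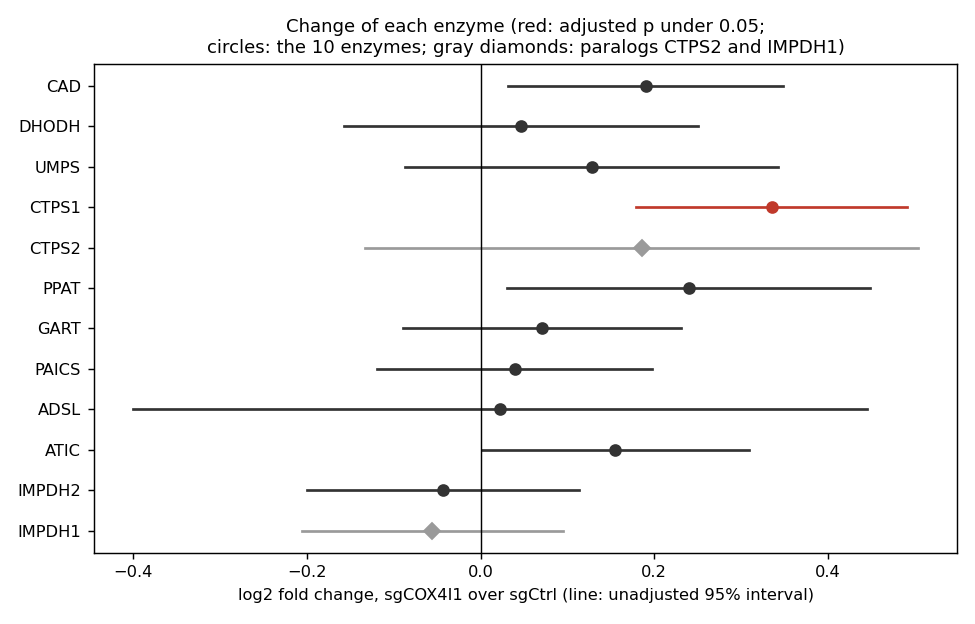
Log2 fold change of sgCOX4I1 over sgCtrl (x axis) with its unadjusted 95% interval for the 10 enzymes (circles) and the paralogs CTPS2 and IMPDH1 (gray diamonds), in pathway order. CTPS1 (red, 0.34) is the only one with an adjusted p under 0.05, the intervals of CAD, PPAT and ATIC lie above 0 before adjustment, and that of ADSL is the widest.

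PPAT, the amidotransferase that commits phosphoribosyl pyrophosphate to purine synthesis (chromosome 4, 56393362 to 56435615, minus strand), had 40.8, 35.7 and 35.0 CPM in the controls against 48.8, 42.3 and 40.6 CPM in the sgCOX4I1 libraries. The groups overlapped by a single pair, as sgCtrl #1 was just above sgCOX4I1 #3. The log2 fold change of PPAT was 0.24 (standard error 0.097), and it was not called (edgeR adjusted p = 0.218).

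GART, a trifunctional enzyme of the early and middle steps (chromosome 21, 33503931 to 33543491, minus strand), had 148, 136 and 141 CPM in sgCtrl and 152, 139 and 155 CPM in sgCOX4I1. PAICS, which carries out the carboxylation and the joining of aspartate (chromosome 4, 56435741 to 56464578, plus strand), had 300, 272 and 284 CPM in sgCtrl and 308, 284 and 288 CPM in sgCOX4I1. In both genes the groups overlapped. The log2 fold changes were 0.071 for GART and 0.039 for PAICS (edgeR adjusted p = 0.680 and 0.828), with unadjusted 95% intervals from -0.089 to 0.23 and from -0.12 to 0.20.

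For the divergent neighbours PPAT and PAICS, the ratio of PAICS to PPAT counts was 7.34, 7.61 and 8.11 in sgCtrl and 6.31, 6.70 and 7.09 in sgCOX4I1, so that every sgCOX4I1 ratio was below every control ratio. The difference in mean log2 ratio was -0.20 (p = 0.1 in a two-sided exact permutation test, which cannot go lower with 3 libraries a group), against a spread within groups of 0.079. Since a ratio within a library does not depend on its total, this value is not set by normalization. Named pseudogenes of PAICS (7) and PPAT (2) are annotated, so reads could have been split between copies.

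**Figure D3:**
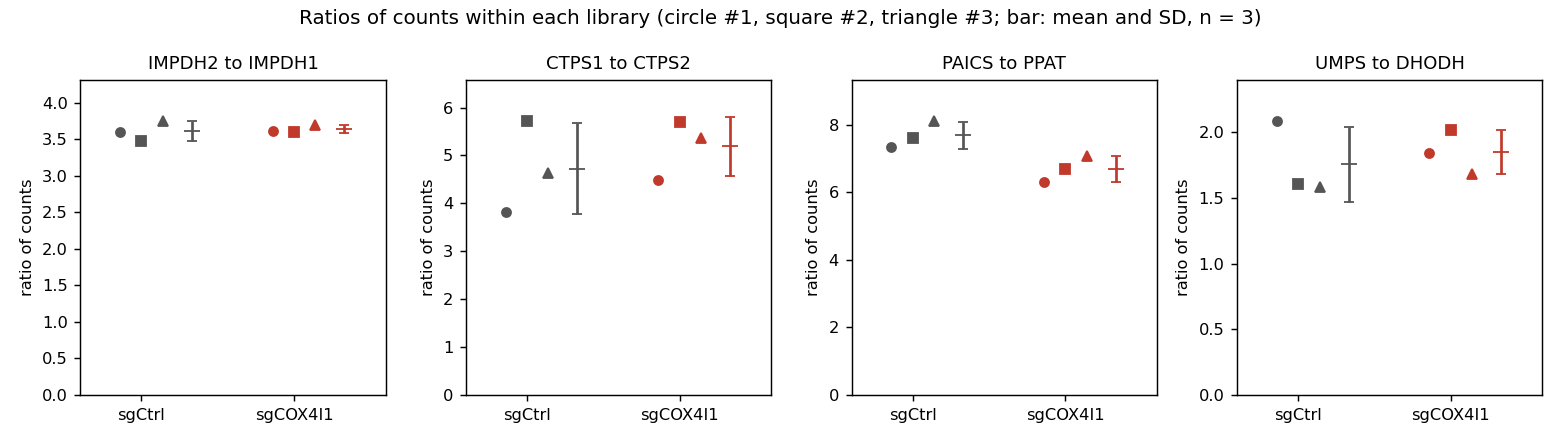
Ratios of counts within each library (y axis, from 0) for 4 gene pairs, with gray for sgCtrl, red for sgCOX4I1, circles, squares and triangles for guides #1, #2 and #3, and a bar for the mean and SD. The groups are separate for PAICS to PPAT, 7.34 to 8.11 against 6.31 to 7.09, and overlap for the other 3 pairs.

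ADSL, which releases fumarate at 1 step of the purine ring and again in AMP synthesis (chromosome 22, 40346461 to 40390463, plus strand), had 5.29, 3.96 and 6.58 CPM in sgCtrl and 5.12, 5.35 and 5.63 CPM in sgCOX4I1. All sgCOX4I1 values lay inside the range of the controls. These are 73 to 176 counts per library, the fewest of the 10 genes, and the log2 fold change of 0.022 has a standard error of 0.20 (edgeR adjusted p = 0.972). A same-strand read-through gene covers 30.6% of the canonical ADSL transcript in GENCODE 44, and whether ADSL is undercounted for this reason was not tested. For IMPDH2 a same-strand overlap covers 98.8% of the transcript, and that gene had 9642 to 16811 counts per library. Whether either overlapping gene was in the annotation behind the counts is not known, and the part of the overlaps in these counts was not tested.

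ATIC, which adds the last formyl group and closes the purine ring to IMP (chromosome 2, 215311956 to 215349773, plus strand), had 115, 106 and 112 CPM in sgCtrl and 129, 121 and 121 CPM in sgCOX4I1. All 3 sgCOX4I1 libraries lay above all 3 sgCtrl libraries. The mean went from 111 ± 4.36 to 124 ± 4.22 CPM (SD, n = 3 each), with 0.16 as its log2 fold change (standard error 0.071), and ATIC was not called (edgeR adjusted p = 0.284).

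IMPDH2, which oxidizes IMP on the way to GMP (chromosome 3, 49024325 to 49029447, minus strand), had 569, 545 and 565 CPM in sgCtrl and 530, 561 and 538 CPM in sgCOX4I1. The groups overlapped, and the log2 fold change was -0.043 with an unadjusted 95% interval from -0.20 to 0.11 (edgeR adjusted p = 0.808). Its paralog IMPDH1 had 158, 157 and 150.5 CPM in sgCtrl and 147, 156 and 145 CPM in sgCOX4I1 (log2 fold change -0.056, edgeR adjusted p = 0.733). The ratio of IMPDH2 to IMPDH1 counts was 3.61 ± 0.138 in sgCtrl and 3.64 ± 0.0507 in sgCOX4I1 (SD, n = 3 each; two-sided exact permutation test, p = 0.8), the tightest of the 4 ratios. The difference in mean log2 ratio was 0.012, and without sgCtrl #2 it was -0.014. For IMPDH1, 10 named pseudogenes are annotated, so reads could have been split between copies. An unnamed gene of the same strand covers 98.8% of the canonical IMPDH2 transcript in GENCODE 44. The annotation behind the deposited counts is not given in the sources used here.

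Between the 10 genes, levels in sgCtrl were compared as CPM per kb of canonical transcript. The order depends on these lengths, and counts per gene do not show which transcripts the cells expressed. PAICS is divided by 6371 bases and ATIC by 1972, while their sgCtrl means were 285 and 111 CPM. IMPDH2 stood first at 339 ± 7.83 (SD, n = 3), ahead of ATIC at 56.3 ± 2.21, PAICS at 44.8 ± 2.17 and GART at 42.7 ± 1.89. CAD followed at 25.1 ± 1.74, CTPS1 at 23.2 ± 0.631 and PPAT at 10.1 ± 0.858, and UMPS at 7.68 ± 0.761, DHODH at 6.27 ± 0.400 and ADSL at 1.21 ± 0.301 CPM per kb were the lowest. PAICS and GART, and likewise CAD and CTPS1, did not differ beyond the sum of their SDs. Per kb, the pyrimidine enzymes all lay below ATIC, PAICS and GART, and the DHODH step had the lowest level of the pyrimidine route.

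For 3 of the 10 genes, CAD, CTPS1 and ATIC, the groups did not overlap, all with sgCOX4I1 higher, where 21.6% of tested genes did not overlap and 11.2% did so with sgCOX4I1 higher. Before adjustment 4 of the 10, those 3 and PPAT, had a p under 0.05 in the edgeR test, where 2054 of the 11861 tested genes did. The counts of an unadjusted p under 0.05 given below for other lists are to be read beside that same share. The 10 genes summed to 1509, 1442 and 1456 CPM in sgCtrl and 1561, 1529 and 1517 CPM in sgCOX4I1, a sum to which IMPDH2 gave the largest share. The guides numbered #1 had the highest value in both groups for UMPS, PPAT, PAICS and ATIC. Of the 4 genes with an E-box in the window, ATIC, DHODH, PPAT and PAICS, the log2 fold changes were 0.16, 0.046, 0.24 and 0.039, and of the 4 without one, CAD, CTPS1, GART and UMPS, they were 0.19, 0.34, 0.071 and 0.13.

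Other enzymes of the same routes gave no call by edgeR, DESeq2 or limma-voom, and 1 had an unadjusted p under 0.05 in the edgeR test. Of 10 such genes 6 were higher and 4 lower, and the median of their log2 fold changes was 0.088. PRPS1, which makes phosphoribosyl pyrophosphate, had 37.8, 35.7 and 33.2 CPM in sgCtrl and 46.9, 42.3 and 35.9 CPM in sgCOX4I1 (log2 fold change 0.23, edgeR adjusted p = 0.278). PRPSAP2, a regulatory partner of that enzyme, had a log2 fold change of 0.18, and ADSS, which starts AMP synthesis, of 0.11.

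Calls were found in both lists that supply the carbon and nitrogen of the rings. Of 12 one-carbon and serine genes 10 were higher and 2 were called by edgeR, and the median was 0.19 on the log2 scale. DESeq2 called 4 of the 12 and limma-voom 2. PSAT1, an aminotransferase of serine synthesis, rose from 112, 93.0 and 87.7 CPM in sgCtrl to 185, 151 and 145 CPM in sgCOX4I1 (log2 fold change 0.72, edgeR adjusted p = 0.00387). MTHFD2, the mitochondrial enzyme that makes formyl carriers, rose from 197, 176 and 194 to 261, 253 and 246 CPM (log2 fold change 0.42, edgeR adjusted p = 0.0119). In both genes every sgCOX4I1 library lay above every control.

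Of 13 genes of aspartate and glutamine supply DESeq2 called 2 and limma-voom 1. In the edgeR fit 10 of the 13 were higher and 1 was called, and the median of the list was 0.12 on the log2 scale. That gene was GPT2, the mitochondrial alanine aminotransferase, which rose from 58.7, 55.3 and 51.2 CPM in sgCtrl to 82.3, 75.2 and 79.2 CPM in sgCOX4I1 (log2 fold change 0.52, edgeR adjusted p = 0.00501). Of the 7 pentose phosphate genes, whose route makes ribose phosphate, 4 were higher and 0 were called by edgeR, DESeq2 or limma-voom, while 2 had an unadjusted p under 0.05 and the median log2 fold change was 0.16. RPE and PGD had log2 fold changes of 0.26 and 0.19.

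**Figure D4:**
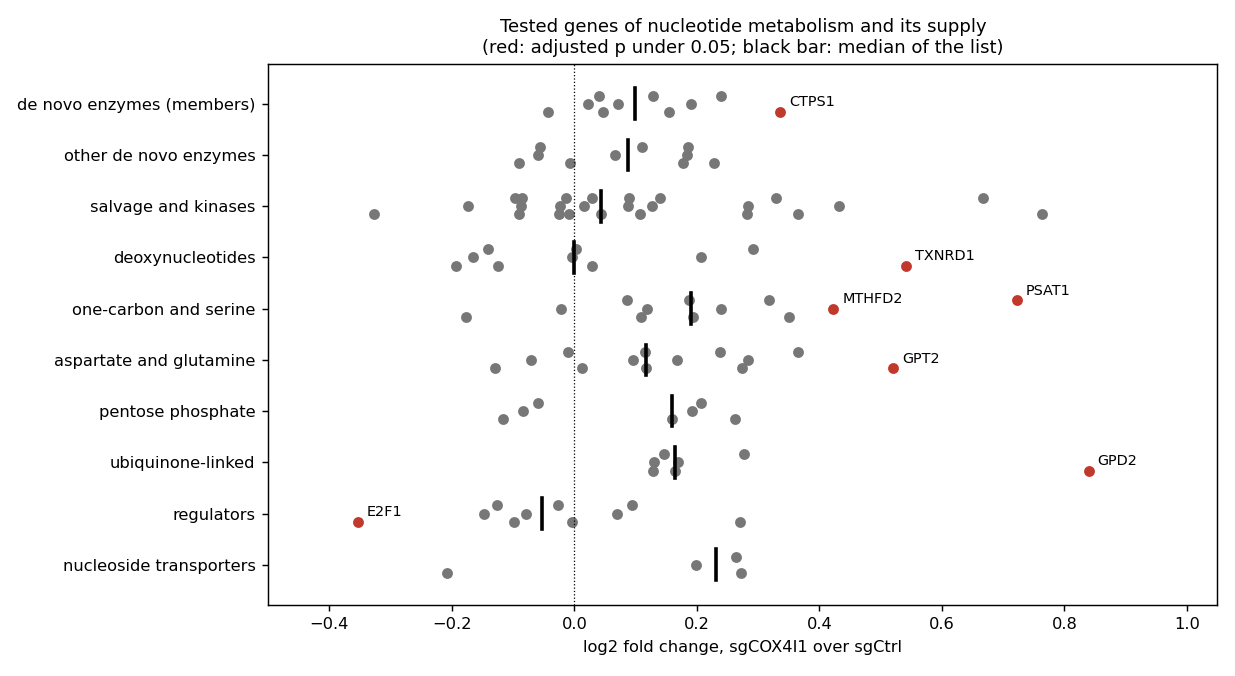
Log2 fold change of sgCOX4I1 over sgCtrl (x axis) for every tested gene of the 10 enzymes and of 9 related lists, with red points for an adjusted p under 0.05 and a black bar for the median of each list. CTPS1 is the only red point among the 10 enzymes, and PSAT1, MTHFD2, GPT2, TXNRD1, GPD2 and E2F1 are the others.

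Salvage enzymes and nucleotide kinases, which recycle bases and nucleosides, gave no call by edgeR among 25 tested genes of 26, of which 15 were higher and 10 lower around a median of 0.043 (log2 fold change), and 6 had an unadjusted p under 0.05 in the edgeR test. TK1, the cytosolic thymidine kinase of dividing cells, had 64.5, 67.0 and 57.6 CPM in sgCtrl and 51.7, 52.6 and 46.6 CPM in sgCOX4I1 (log2 fold change -0.33, edgeR adjusted p = 0.0642), and it was the 1 gene of the list that DESeq2 called, with limma-voom calling 0. PNP and ADA, which break down purine nucleosides, each had a log2 fold change of 0.28 (edgeR adjusted p = 0.103 and 0.108). In edgeR fits with other settings TK1 was called with no filter on low counts (adjusted p = 0.0340) and without sgCtrl #3 (0.0376), and PNP without sgCtrl #1 (0.0246). Among 10 genes of deoxynucleotide synthesis 5 were higher and 5 lower, and the median was -0.00088 on the log2 scale. The 1 called was TXNRD1, a thioredoxin reductase that also serves redox defence, which rose from 136, 127 and 134 to 176, 214 and 188 CPM (log2 fold change 0.54, edgeR adjusted p = 0.00461).

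Genes of enzymes that, like DHODH, pass electrons to ubiquinone were all higher in the 7 tested of 9. Among them SDHA, SDHB, SDHC and SDHD encode subunits of the same enzyme, Complex II, so the 7 genes are not 7 separate enzymes. The median of the 7 genes was 0.16 on the log2 scale, and 1 was called. GPD2, the mitochondrial glycerol-3-phosphate dehydrogenase, rose from 4.25, 3.04 and 3.78 CPM in sgCtrl to 6.95, 6.28 and 6.59 CPM in sgCOX4I1 (log2 fold change 0.84, edgeR adjusted p = 0.0333). DHODH, at 0.046, lay below each of these 7 genes, whose log2 fold changes ran from 0.13 to 0.84. That difference was not tested.

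Of 10 transcriptional regulators of nucleotide genes 3 were higher and 7 lower, and the median was -0.054 on the log2 scale. E2F1, which drives genes of S phase, fell from 44.5, 49.6 and 46.2 CPM in sgCtrl to 37.1, 34.9 and 37.7 CPM in sgCOX4I1 (log2 fold change -0.35, edgeR adjusted p = 0.0437). MYC and ATF4 are named here after their values were seen, with log2 fold changes of 0.27 (edgeR adjusted p = 0.139) and -0.0035 (edgeR adjusted p = 0.988). Of 4 tested nucleoside transporters of 5, 3 were higher and 0 were called by the same 3 tools, while 2 had an unadjusted p under 0.05 and the median log2 fold change was 0.23. SLC29A1, SLC29A2 and SLC29A3 had log2 fold changes of 0.26, -0.21 and 0.20.

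Leaving out sgCtrl #2 ended the calls of PSAT1, TXNRD1, GPT2, MTHFD2, GPD2 and E2F1 as well as that of CTPS1, with edgeR adjusted p-values from 0.0731 for GPT2 to 0.253 for E2F1. Without sgCOX4I1 #2, MTHFD2 (edgeR adjusted p = 0.0599), GPD2 (0.107) and E2F1 (0.166) were not called, and PSAT1, TXNRD1 and GPT2 were. GPD2 was also lost without sgCOX4I1 #1 or #3, and E2F1 without sgCtrl #3 or any one sgCOX4I1 library. E2F1 was not called with library size alone in place of TMM either (edgeR adjusted p = 0.0577), and against a change of 1.2-fold (glmTreat) PSAT1 was the only one of the 7 genes called. None of these 7 genes changed direction with any library left out.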

How the data were processed

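RNA-seq libraries of Molm13-Cas9 cells, 3 sgCtrl and 3 sgCOX4I1, were analysed. The authors deposited whole-number counts of reads per gene symbol without normalization. The submitters' processing notes name bcl2fastq 2.20.0.422, STAR 2.6.0a, edgeR and GRCh38, the column names also name marked duplicates and HTSeq, and the methods name Trimmomatic, Bowtie2 and RSEM instead. The annotation used is not given in the sources used here. The library kit was directional. Columns were matched to samples by letter (C control, K knockout) and number.

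Counts were analysed in R 4.3.3 with edgeR 4.0.16 (TMM, filterByExpr, quasi-likelihood test without covariates, Benjamini-Hochberg adjustment over all genes tested), after a test on simulated data. Intervals are 95% and unadjusted. DESeq2 1.42.0, limma-voom (limma 3.58.1), other filters, library size alone, a replicate block, glmTreat at 1.2-fold and each library left out were alternatives. A count of 0 allows up to 3 counts, 0.0972 to 0.174 CPM, from counting error only.

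The members and lists were chosen with earlier results of these data known. The rule named COX4I1, all members, IMPDH1, CTPS2, and in each list every called gene or else the up to 3 with the smallest adjusted p, and some genes of the lists are not reported here. ADSS2 is listed as ADSS. Motifs were chosen after values were seen, and promoter windows came from RefSeq. Gene positions and transcript lengths came from GENCODE 44. The guide number was not a covariate in the main fit, and the closing section gives the fit with it as a block.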

Additional observations from a re-analysis of the deposited data

How the results depend on the processing

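The number of genes called was 247 and became 466 with DESeq2, 537 with no filter on low counts, 35 with glmTreat against a 1.2-fold change, and 24 (without sgCtrl #2) to 561 (without sgCtrl #1) with 1 library left out. Calls of at least 2-fold numbered 24, and 41 with no filter, 57 with the replicate block and 9 to 50 with 1 library left out. Of the 10 enzymes 1 was called, CTPS1, and 0 with glmTreat and 0 to 1 with 1 library left out. Over the 13 alternatives CTPS1 was called in 7, and its log2 fold change stayed between 0.31 and 0.36. Its adjusted p-values ran from 0.00207 to 0.156 (edgeR, DESeq2 or limma) apart from glmTreat. That test asks for a change beyond 1.2-fold and gave 1.00. The number of the 10 that were lower was 1, and 1 to 2 with 1 library left out. DHODH and ADSL, near 0, reversed in 2 such fits each, and the cause was not tested. Their log2 fold changes ran from -0.011 to 0.086 and from -0.15 to 0.22 with 1 library left out. The other enzymes kept their direction in every alternative. Counted over the 10 enzymes in each of the 13 alternatives, 126 of 130 directions were kept. Differences in the 4 ratios moved by less than the spread between libraries. The causes of these shifts were not tested.

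With the guide number as a replicate block, 1408 genes and 3 of the 10 enzymes were called, CTPS1 with CAD (edgeR adjusted p = 0.0432) and PPAT (0.0341). Over the alternatives other than glmTreat, the adjusted p-values of CAD and PPAT (edgeR, DESeq2 or limma) ran from there to 0.443 and 0.523. With glmTreat both were 1.00. Of the other genes named, the block also gave calls of TK1 (edgeR adjusted p = 0.00295), PNP (0.00424), ADA (0.0119), RPE (0.0342), SLC29A1 (0.00940) and SLC29A2 (0.0431). Deviations from the group means correlated at 0.38, -0.024 and 0.29 between libraries numbered #1, #2 and #3. For sgCtrl #1 and #3 the library of the same number gave the highest correlation, while sgCtrl #2 correlated best with sgCOX4I1 #3, at 0.064. Whether libraries of the same number share a batch cannot be told from these values, and no label names a batch. Depth limits ADSL most, at 73 to 176 counts.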
